A study of Homo sapiens with 8 samples.

Results

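Histone genes were followed across both cell lines and all treatments. A gene was a member when a probe set carried its symbol alone and the symbol was that of a clustered histone gene (H2AC, H2BC, H3C or H4C with a number, and H1-1 to H1-6) or of a histone variant (H1-10, H2AX, H2AZ1, MACROH2A1 and the like), and each gene was read from its brightest such probe set on average. Membership rested on symbols and on no measured response, whereas the brightest probe set was chosen by the signals of these arrays. The rule was set with earlier results of these data known. It gave 54 of the 19775 genes on the array, 42 clustered and 12 variant, with 78 probe sets. Of the clustered genes 40 lie on chromosome 6 and 2 on chromosome 1. Total RNA of LNCaP and 22Rv1, a pair of human prostate carcinoma lines, was hybridized to Affymetrix U133 Plus 2.0 arrays, and the cells of each line formed 4 groups. Cells were left untreated, or received caffeine at 10 mM for 4 hours. After that caffeine step the medium of other plates was changed for actinomycin D at 2 µg/ml, either together with caffeine at 10 mM or alone, for another 4 hours. There was 1 array for each line and treatment, 8 in all, from cells grown in RPMI with serum. Caffeine was used to block nonsense-mediated mRNA decay (NMD), the degradation of mRNAs with a premature stop codon, and actinomycin D to stop transcription.

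Histones are the proteins that DNA is wound around in nucleosomes. The clustered genes are transcribed mainly while DNA is replicated in S phase, and most of their mRNAs end in a stem-loop bound by SLBP and not in a poly(A) tail, although some clustered genes also give a polyadenylated mRNA. When DNA replication stops, stem-loop mRNAs are degraded quickly in a process that needs UPF1, which is also the central factor of NMD. Variant genes are mostly transcribed throughout the cell cycle and give polyadenylated mRNAs. Labelling for these arrays starts from the poly(A) tail, so that a signal of a clustered gene reads mainly its polyadenylated form.

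Promoters of the members were taken from the RefSeq table of GRCh38.p14, in which 40 of the 42 clustered genes and all 12 variants had an entry, some with several start sites. In the 250 bases before the start site, on either strand, the octamer ATTTGCAT was present in 11 of 15 windows of clustered H2B genes (73.3%), in 6 of 28 windows of the other clustered genes (21.4%), in none of 17 windows of variants and in 1.63% of all 35116 windows. CCAAT was present in 88.4% of clustered, 70.6% of variant and 32.0% of all windows, and TATAAA in 67.4%, 29.4% and 10.7%. The 3 motifs were searched for one by one. The 150 bases before the start are shown for 3 H2B genes, 1 linker histone gene and 1 H2A gene that differed widely between the lines, and for the variants H2AX, which had the lowest estimate after caffeine, and H2AZ1, which was well above background on every array. Capitals mark the 3 motifs on either strand.
H2BC12 (chr6:27146859-27147008, minus strand): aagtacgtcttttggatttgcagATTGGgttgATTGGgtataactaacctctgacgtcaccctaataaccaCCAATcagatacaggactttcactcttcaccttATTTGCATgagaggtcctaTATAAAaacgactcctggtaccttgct
H2BC21 (chr1:149886683-149886832, minus strand): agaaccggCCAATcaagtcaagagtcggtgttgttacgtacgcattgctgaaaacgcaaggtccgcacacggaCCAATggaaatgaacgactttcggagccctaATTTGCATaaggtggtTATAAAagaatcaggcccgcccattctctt
H2BC5 (chr6:26157971-26158120, plus strand): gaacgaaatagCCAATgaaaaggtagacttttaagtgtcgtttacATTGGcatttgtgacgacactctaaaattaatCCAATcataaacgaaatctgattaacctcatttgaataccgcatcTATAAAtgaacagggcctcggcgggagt
H1-2 (chr6:26056471-26056620, minus strand): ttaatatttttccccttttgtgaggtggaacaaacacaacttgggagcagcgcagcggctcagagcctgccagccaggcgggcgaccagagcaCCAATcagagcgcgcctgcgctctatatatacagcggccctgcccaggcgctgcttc
H2AC6 (chr6:26124022-26124171, plus strand): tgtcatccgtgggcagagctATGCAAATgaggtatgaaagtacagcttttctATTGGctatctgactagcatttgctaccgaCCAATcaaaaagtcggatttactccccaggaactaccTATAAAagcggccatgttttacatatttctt
H2AX (chr11:119095466-119095615, minus strand): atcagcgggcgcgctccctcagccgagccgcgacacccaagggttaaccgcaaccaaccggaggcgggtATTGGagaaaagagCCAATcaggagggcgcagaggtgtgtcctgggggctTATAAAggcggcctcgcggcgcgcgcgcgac
H2AZ1 (chr4:99950276-99950425, minus strand): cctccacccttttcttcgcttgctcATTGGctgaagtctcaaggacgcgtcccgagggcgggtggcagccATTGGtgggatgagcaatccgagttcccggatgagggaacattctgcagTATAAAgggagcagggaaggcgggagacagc

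The octamer stands close before the TATAAA of H2BC12 and H2BC21, whereas the printed bases of H2BC5 lack its exact letters. In H2AC6 the octamer lies on the other strand, far from the start. The neighbour of H2AC6 on that side in RefSeq was H2BC4, which is transcribed in the opposite direction. These matches describe the letters and are not evidence of binding.

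Signals are log2 values that the authors normalized so that all arrays have the same distribution, and they are therefore relative to the other RNA on the array. A probe set was tested when its mean over the 8 arrays was at least 4, a level near background, which left 21453 probe sets. The 3 probe sets of 18S ribosomal RNA averaged 11.71 on the LNCaP array of actinomycin D with caffeine and 4.09 to 7.08 on the other 7 arrays. The 21 poly-A control probe sets, which read bacterial transcripts meant to be added to the RNA, averaged 6.60 to 7.49 on the 4 arrays without actinomycin D and 7.79 to 8.40 on the 4 arrays with it. The labels do not say whether these transcripts were added in equal amounts. Of the prostate epithelial markers, KLK2, HOXB13 and EPCAM were above 9 on all arrays, KRT8 and KRT18 were at least 8.90, and KLK3 and FOLH1 were between 5.56 and 9.32. PTPRC of leukocytes, PECAM1 of endothelium and COL1A2 of fibroblasts were below 3 on all arrays. DCN, also of fibroblasts, was between 5.56 and 7.06 in 22Rv1 and between 2.27 and 4.19 in LNCaP.

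Of the 42 clustered genes, 16 reached the mean of 4 and 26 did not, among them 22 that stayed below 4 on all 8 arrays. Of the 12 variants 7 were tested and 4 stayed below 4 on all arrays. The tested clustered genes were 1 of 6 H1 genes, 4 of 8 H2A genes, 6 of 13 H2B genes, 2 of 7 H3 genes and 3 of 8 H4 genes. The tested variants were 1 of 3 H1 genes, 4 of 5 H2A genes, none of 2 H3 genes and both MACROH2A genes. On at least 1 LNCaP array 20 clustered and 8 variant genes reached 4, and on at least 1 22Rv1 array 12 and 7 did. The members just inside the limit were H3C6 with a mean of 4.01 and H2BC11 with 4.23, and those just outside were H2AC15 with 3.87 and H2BC17 with 3.75.

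Among the tested members the cell lines differed by more in most clustered genes than in the 7 variants. Over the 4 treatments 14 of the 16 tested clustered genes were higher in LNCaP than in 22Rv1 and none was lower (limma with treatment as a block, adjusted p under 0.05; 15 and none with scaling to the poly-A controls), against 27.4% of all tested probe sets that were higher and 26.3% that were lower. In these 14 genes every LNCaP array was above every 22Rv1 array, as in 20.5% of all tested probe sets. A gene that reached the mean of 4 only through LNCaP had to differ, and this held for 7 of the 14, H2AC14, H2AC17, H2BC9, H2BC11, H3C6, H4C5 and H4C11, whose means in 22Rv1 were below 4. Of the 9 tested clustered genes with a mean of at least 4 in 22Rv1, 7 were higher in LNCaP, H1-2, H2AC6, H2BC5, H2BC6, H2BC12, H2BC21 and H4C8. The 26 clustered genes that were not tested are outside these counts. Under scaling to the poly-A controls 8823 of all 21453 tested probe sets were higher in LNCaP and 3219 lower. With 1 array for each line and treatment, the p-values measure the spread between arrays of different treatments and not between repeated cultures, and in such bulk RNA fewer cells in S phase cannot be told apart from less histone mRNA per cell.

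**Figure D1:**
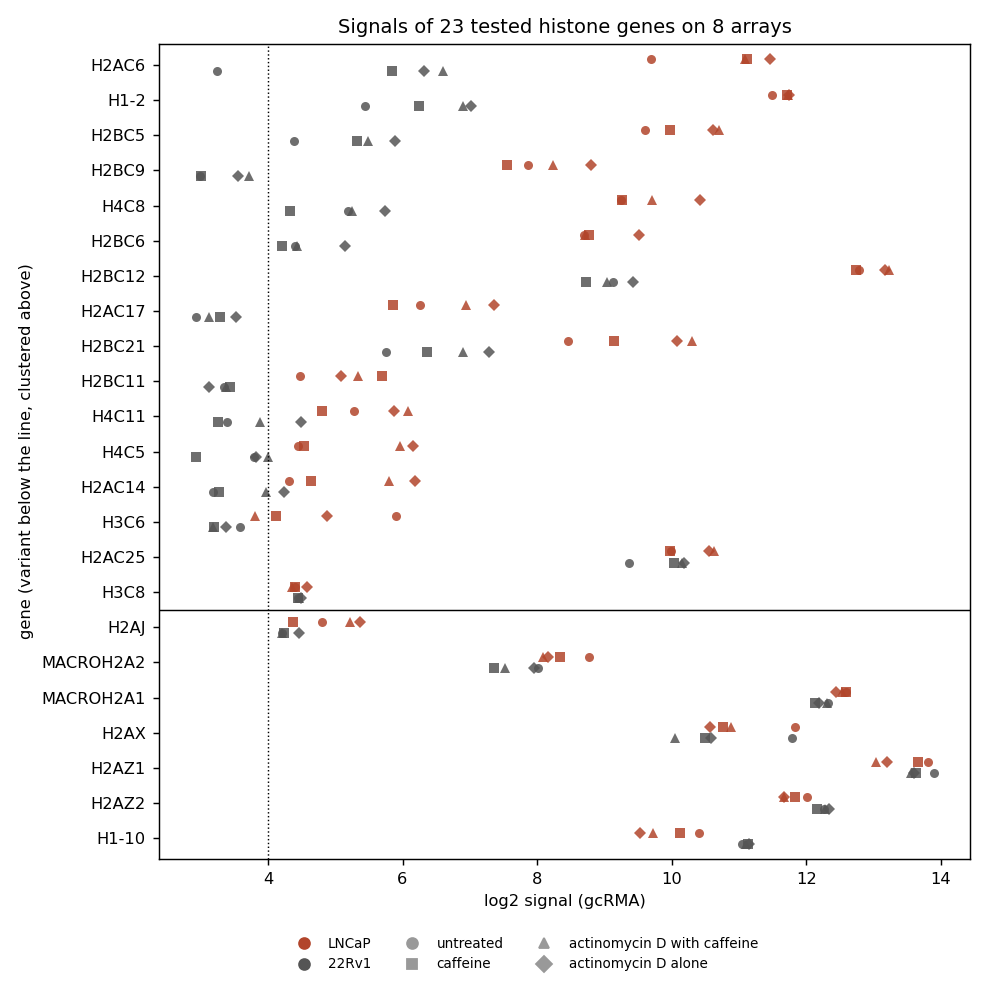
Log2 signal (x axis) of the 23 tested histone genes (y axis) on the 8 arrays, LNCaP in red and 22Rv1 in grey, with a symbol for each treatment. The dotted line is the limit of 4. In 14 clustered genes all red symbols lie to the right of all grey ones, and in most variants the lines lie close together.

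H2BC12, a clustered H2B gene, was at 12.79 in untreated LNCaP, 12.74 after caffeine, 13.22 after actinomycin D with caffeine and 13.17 after actinomycin D alone. In 22Rv1, in the same order of treatments, it was at 9.13, 8.73, 9.04 and 9.43. The 4 LNCaP arrays were thus far above the 4 22Rv1 arrays although the gene was well above background in both lines. The estimate was 3.90 (SE 0.16, adjusted p = 2.55e-05), a 14.9-fold higher signal.

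H1-2, a gene of the linker histone H1 that binds the DNA between nucleosomes, was at 11.49, 11.71, 11.73 and 11.75 in LNCaP and at 5.45, 6.25, 6.91 and 7.02 in 22Rv1. The LNCaP arrays lay close together, while the 22Rv1 arrays were lowest in untreated cells. The estimate was 5.26 (SE 0.25, adjusted p = 4.78e-05), or 38.4-fold. Another core histone gene, H2AC6, was at 9.70, 11.12, 11.09 and 11.46 in LNCaP and at 3.24, 5.84, 6.60 and 6.33 in 22Rv1, with an estimate of 5.34 (SE 0.32, adjusted p = 0.000102). Its untreated value in 22Rv1 was below the limit of 4, and with values under 4 set to 4 the estimate was 5.15.

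The other H2B genes followed with estimates of 4.95 for H2BC5, 4.79 for H2BC9, 4.38 for H2BC6, 2.92 for H2BC21 and 1.83 for H2BC11, with SE from 0.14 to 0.22. In 22Rv1 H2BC9 and H2BC11 were below 4 on all arrays, and with values under 4 set to 4 their estimates were 4.11 and 1.14. H2BC5 was at 9.61, 9.98, 10.71 and 10.61 in LNCaP and at 4.38, 5.33, 5.49 and 5.89 in 22Rv1. H2BC6 was at 8.70, 8.77, 8.72 and 9.51 in LNCaP and at 4.40, 4.21, 4.44 and 5.15 in 22Rv1. The groups did not overlap in any of these H2B genes. H2BC21, which lies outside the chromosome 6 cluster, was at 8.47, 9.14, 10.31 and 10.09 in LNCaP and at 5.75, 6.36, 6.90 and 7.29 in 22Rv1.

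Among the H4 genes, H4C8 was at 9.25, 9.26, 9.72 and 10.43 in LNCaP and at 5.19, 4.33, 5.25 and 5.74 in 22Rv1, with an estimate of 4.54 (SE 0.19). H4C11 and H4C5 differed less, by 1.75 and 1.64. Of the H2A genes, H2AC17 differed by 3.39 and H2AC14 by 1.57, and H2AC14 was between 4.32 and 6.18 in LNCaP and between 3.18 and 4.23 in 22Rv1. H3C6 had the smallest difference of the 14, at 1.34 (SE 0.29), and ranged from 3.81 to 5.91 in LNCaP, close to the limit of 4. The calls of H3C6 and H4C5 were lost when no filter on low values was used, with adjusted p of 0.115 and 0.0716, and that of H3C6 also when values under 4 were set to 4 (adjusted p = 0.114).

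H2AC25 and H3C8 were the 2 tested clustered genes for which no difference between the lines was called. H2AC25 was at 10.00, 9.97, 10.64 and 10.56 in LNCaP and at 9.37, 10.04, 10.16 and 10.19 in 22Rv1, so that the lines overlapped (estimate 0.35, SE 0.17, adjusted p = 0.123). H3C8 stayed near background on all arrays of both lines, with an estimate of -0.03 (SE 0.13, adjusted p = 0.886). H2AC25 is one of the 2 clustered members on chromosome 1, together with H2BC21.

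**Figure D2:**
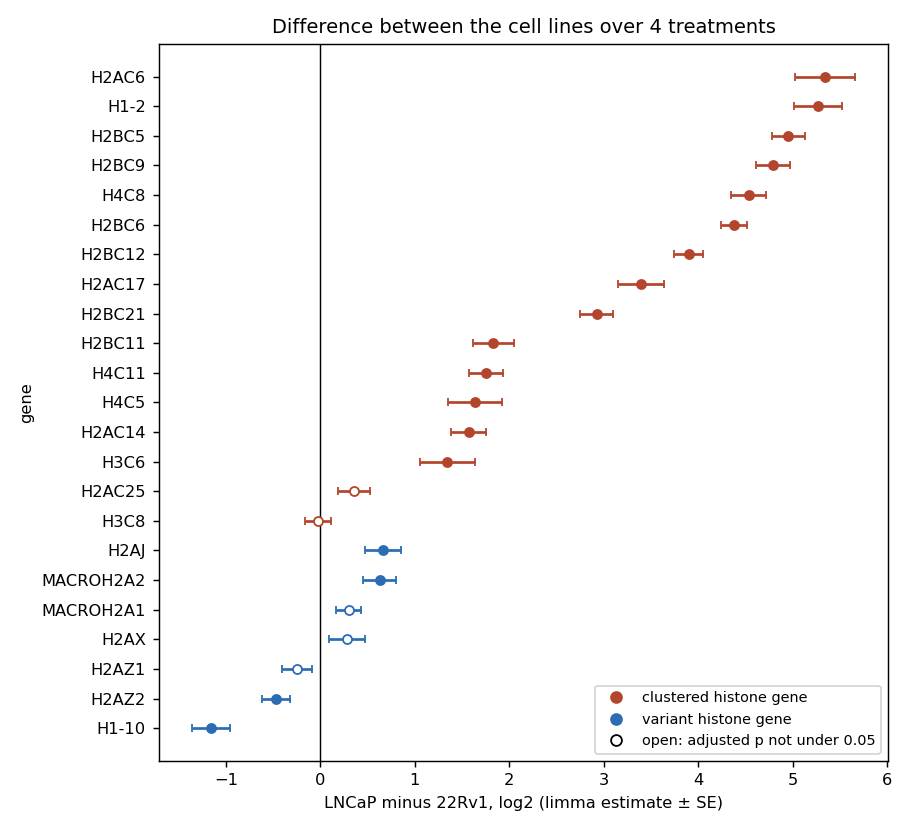
LNCaP minus 22Rv1 in log2 units (x axis, limma estimate over 4 treatments with its SE as bar) for the 23 tested histone genes (y axis). Clustered genes in red reach from -0.03 to 5.34, variants in blue from -1.16 to 0.67, and open symbols were not called.

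Of the 7 tested variants, H2AJ and MACROH2A2 were higher in LNCaP, by 0.67 (SE 0.19) and 0.63 (SE 0.17), and H1-10 and H2AZ2 were lower, by 1.16 (estimate -1.16, SE 0.20) and 0.47 (estimate -0.47, SE 0.15). Over all tested probe sets 27.4% were higher and 26.3% lower. H2AJ was near the limit of 4, at 4.37 to 5.37 in LNCaP and 4.21 to 4.45 in 22Rv1, and the lines overlapped. Of its other probe sets one had a mean of 4.06 and the rest stayed at background. H1-10, a replication-independent linker histone, was at 10.41, 10.13, 9.72 and 9.54 in LNCaP and at 11.05, 11.13, 11.10 and 11.15 in 22Rv1, and the lines did not overlap. MACROH2A2, a histone with a large macrodomain found in inactive chromatin, was at 8.77, 8.34, 8.09 and 8.17 in LNCaP and at 8.01, 7.35, 7.52 and 7.96 in 22Rv1. Of the 18 calls between the lines, those of H2AJ, H2AZ2 and MACROH2A2 were lost without most single arrays of either line, with adjusted p of up to 0.131 in H2AZ2, and without a filter on low values. With scaling to the poly-A controls the estimate of H2AZ2 was -0.04 (adjusted p = 0.897). The call of H1-10 held with each single array left out and was lost without a filter (adjusted p = 0.0503) and with scaling to the poly-A controls (0.0559). Under that scaling 4 variants were higher and 0 lower, against 8823 and 3219 of all 21453 tested probe sets.

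H2AZ1 and H2AZ2 encode the forms of H2A.Z that mark promoters. H2AZ1 was between 13.03 and 13.81 in LNCaP and between 13.56 and 13.89 in 22Rv1, which overlapped (estimate -0.25, adjusted p = 0.238). H2AZ2 was at 11.67 to 12.01 in LNCaP and at 12.17 to 12.34 in 22Rv1. Its other 3 probe sets gave line estimates between -1.56 and -0.90, all called lower. MACROH2A1 was at 12.44 to 12.59 and at 12.14 to 12.32 (estimate 0.30, SE 0.13, adjusted p = 0.110), with every LNCaP array above every 22Rv1 array. H2AX, which is phosphorylated at DNA breaks, was at 10.57 to 11.83 in LNCaP and 10.04 to 11.79 in 22Rv1 (estimate 0.29, SE 0.19, adjusted p = 0.248). Scaling to the poly-A controls made both MACROH2A1 (0.73, adjusted p = 0.0212) and H2AX (0.72, adjusted p = 0.0236) called higher in LNCaP. MACROH2A1 was also called with a variance trend (adjusted p = 0.0148) and without a filter on low values (0.0457).

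A list of 26 genes that make, process or degrade histone mRNA was read beside the members, of which 24 were tested. Between the lines 12 of the 24 were higher in LNCaP and 5 (20.8%) lower, against 27.4% and 26.3% of all tested probe sets. The largest estimates were TUT7, a uridylyl transferase of RNA 3' ends, at 2.52, CCNE1, the cyclin E that starts S phase, at 1.84, and CSTF2 of the 3' end cleavage machinery at 1.61. NPAT, the coactivator of clustered histone genes, was higher by 1.21. CDK2, the partner kinase of cyclin E, was lower by 2.43 (estimate -2.43), CASP8AP2, a factor of histone mRNA processing known as FLASH, had an estimate of -2.07, and SLBP of -0.66 (SE 0.14, adjusted p = 0.00846). SLBP was between 9.84 and 10.67 in LNCaP and between 10.49 and 11.50 in 22Rv1. The mRNA of SLBP thus differed between the lines in the direction opposite to the signals of the clustered genes. How SLBP bears on those signals, which read mainly polyadenylated mRNA, was not tested.

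Of 28 tested histone chaperones, 2 were higher in LNCaP and 7 lower (7.14% and 25.0%, against the same 27.4% and 26.3%), with EP400 of an H2A.Z-loading complex at -2.20 and ANP32E, which removes H2A.Z, at -1.37. ASF1A, a chaperone of H3 and H4, was higher by 0.88. Of 23 tested S phase genes, 2 were higher in LNCaP and 5 lower (8.70% and 21.7%). The higher ones were CCNE1 and the helicase subunit MCM6 (0.92), and among the lower ones were LIG1, a DNA ligase of replication, at -1.63, the replication licensing factor CDT1 at -0.95 and RRM2 of nucleotide synthesis at -0.70. The other 16 S phase genes were not called. CCNE1 belongs to both this list and that of histone mRNA. Markers also differed between the lines: KRT8 had an estimate of -2.91 and KLK3 of -1.53, FOLH1 of 1.18 and HOXB13 of 0.87. The 4 markers of other cells summed to 9.20 to 11.03 in LNCaP and to 12.74 to 14.36 in 22Rv1, with DCN, a matrix gene of fibroblasts, as the 1 that was tested (estimate -2.96, adjusted p = 0.00450). Their part in the differences of histone genes was not tested.

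Accumulation is the change that caffeine made in its 4 hours, as the caffeine array minus the untreated array of the line. No histone gene was called (limma with the line as a block), against 0.0466% of all tested probe sets, and 5 of the 23 had an unadjusted p under 0.05 against 17.7% of all. H2AC6 had the largest estimate, at 2.01 (SE 0.45, adjusted p = 0.122), from 9.70 to 11.12 in LNCaP and from 3.24 to 5.84 in 22Rv1. H2AX had the lowest, at -1.18 (SE 0.27, adjusted p = 0.122), from 11.83 to 10.76 in LNCaP and from 11.79 to 10.50 in 22Rv1. Of the other 3 probe sets of H2AX, 1 reached a mean of 4 and differed by -0.92 in LNCaP and -1.62 in 22Rv1, 1 with a mean of 3.74 differed by -1.88 and 0.40, and 1 stayed at background on all arrays. The differences were at least 1 in both lines for H2AC6 and below -1 in both for the main probe set of H2AX, and neither was called after adjustment.

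Counted within a line at a difference of at least 1, among genes at 4 or more on one of its arrays and without any test, accumulation gave 3 clustered genes higher and 1 lower of 20 in LNCaP and 0 variants higher and 2 lower of 8, against 5.19% of all genes higher and 3.70% lower. In 22Rv1 1 clustered gene of 9 was higher and none lower, and of 7 variants none was higher and 1 lower, against 8.41% and 6.12%. The clustered gene was H2AC6, at 3.24 before caffeine, which entered the count only through its caffeine array, at 5.84. Here and in the comparisons below, a gene under 4 on its lower array enters such a count only through its higher one. The same rule was applied to all genes. H2BC11 was higher in LNCaP alone, with 5.69 after 4.47, and H3C6 lower, with 4.12 after 5.91. The median difference of the clustered genes was 0.07 in LNCaP and 0.61 in 22Rv1, and that of variants -0.36 and -0.19. H2BC21 (0.64) and H2BC5 (0.65) had estimates above 0 with differences above 0 in both lines, whereas H4C8 and H4C5 differed by 0.02 and 0.08 in LNCaP and by -0.86 and -0.86 in 22Rv1. Whether the lines differed in these responses cannot be tested with 1 array each.

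Degradation is the array of actinomycin D with caffeine minus that of actinomycin D alone, which reads whether blocked NMD kept an mRNA while transcription was stopped. No histone gene was called, against 0.00% of all tested probe sets, and 1 had an unadjusted p under 0.05 against 7.98% of all. This was H2BC6, with 8.72 against 9.51 in LNCaP and 4.44 against 5.15 in 22Rv1 (estimate -0.75, SE 0.19, adjusted p = 0.460). It was lower with caffeine than without in both lines. H4C8 followed with -0.60 and H3C6 with -0.63, and the highest estimate was that of H2BC11, at 0.25 (SE 0.31). Estimates of 14 of the 16 tested clustered genes and of 5 of the 7 variants were below 0, with medians of -0.16 and -0.10, and scaling to the poly-A controls turned both medians above 0, to 0.23 and 0.29.

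In LNCaP 3 of 19 clustered genes were lower by at least 1 and none higher, against 3.17% and 5.32% of all genes. In 22Rv1 none of 12 was higher or lower, against 3.16% and 1.21%, and none of 7 variants passed in either line. The 3 genes of LNCaP were H2AC15, H2BC4 and H3C6, whose means were near or below the limit of 4. H2AC15 and H3C6 were below 4 with caffeine and entered only through the array of actinomycin D alone. H2BC4 was at 6.57 after actinomycin D alone and at 4.05 with caffeine, and below 3 on every 22Rv1 array. These LNCaP values rest on the array whose 18S signal stood apart, and its part in them was not tested. Without that array degradation rests on 22Rv1 alone, so leaving it out cannot decide its part.

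Decay is actinomycin D alone minus caffeine, the change in each mRNA relative to the rest after caffeine was removed and transcription stopped. No histone gene was called, against 2.34% of all tested probe sets, but 10 of the 16 tested clustered genes had an unadjusted p under 0.05, all with estimates above 0 in the deposited values and below 0 with scaling to the poly-A controls, against 21.7% of all tested probe sets with such a p in either direction. Estimates were above 0 for 15 of 16 clustered genes and 3 of 7 variants with the deposited values, and for 0 of either with poly-A scaling, against 54.2% of all tested probe sets above 0 in the deposited values. The median was 0.72 for clustered genes, -0.04 for variants and 0.05 for all tested probe sets. After poly-A scaling the medians were -0.65 for clustered genes and -1.41 for variants, since this scaling shifts all genes alike.

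H4C8 had the largest estimate, at 1.29 (SE 0.26, adjusted p = 0.0683), from 9.26 to 10.43 in LNCaP and from 4.33 to 5.74 in 22Rv1, and -0.08 with poly-A scaling. It was called when the mean had to reach 6 (adjusted p = 0.0450) and when its probe sets were averaged (1.57, adjusted p = 0.0417). H4C11 was at 4.80 and then 5.88 in LNCaP and at 3.26 and then 4.50 in 22Rv1 (estimate 1.16, SE 0.26, adjusted p = 0.0816), and -0.21 with poly-A scaling. H2AC14 had an estimate of 1.25 (SE 0.26, adjusted p = 0.0734), from 4.64 to 6.18 in LNCaP and from 3.27 to 4.23 in 22Rv1, and -0.12 with poly-A scaling. In each of these genes both lines had the higher value after actinomycin D on the deposited scale, although most 22Rv1 values of H4C11 and H2AC14 were below 4.

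H4C5 (1.25), H2BC21 (0.94), H2BC9 (0.90), H2AC17 (0.87), H2BC6 (0.84), H2BC5 (0.60) and H2BC12 (0.56) were the other clustered genes with an unadjusted p under 0.05, and with poly-A scaling their estimates lay between -0.81 and -0.12. H2BC21 differed by 0.95 in LNCaP and 0.93 in 22Rv1. H2BC12, well above background in both lines, differed by 0.43 and 0.70. H2BC11 had the lowest estimate of the clustered genes, at -0.46 (SE 0.31), and was the one below 0 under both scalings. Among variants H2AJ was at 0.61, MACROH2A2 at 0.22, H2AZ2 at 0.00, MACROH2A1 at -0.04, H2AX at -0.06, H2AZ1 at -0.25 and H1-10 at -0.29, none with an adjusted p under 0.257, and with poly-A scaling all 7 were called lower, between -1.66 and -0.76. That scaling called 17489 of all 21453 tested probe sets lower in decay. The other probe sets of MACROH2A1 with a mean of at least 4 went both ways in the deposited values. One differed by 0.48 in LNCaP and 0.52 in 22Rv1, the other by -0.22 and -1.88.

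Within LNCaP, in the deposited values, 7 of 20 clustered genes and 1 of 7 variants were higher by at least 1 and none was lower, against 4.67% of all genes higher and 11.9% lower. Within 22Rv1 2 of 11 clustered genes were higher and none lower, and no variant passed, against 3.16% and 10.5%. The 2 genes of 22Rv1 were H4C8 and H4C11, and both were also among the 7 of LNCaP. In 22Rv1 H4C11 was at 3.26 after caffeine and entered only through its actinomycin D array, at 4.50. In LNCaP the same held for H2BC4, at 3.62 and then 6.57. Median differences were 0.69 in LNCaP and 0.78 in 22Rv1 for clustered genes, -0.17 and 0.08 for variants, and -0.09 and 0.03 for all genes, whereas with poly-A scaling the median over both lines was -0.64 for clustered genes and -1.42 for variants. The poly-A controls rose by 1.55 in LNCaP and by 1.19 in 22Rv1, and scaling to them shifts every difference down by these amounts.

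**Figure D3:**
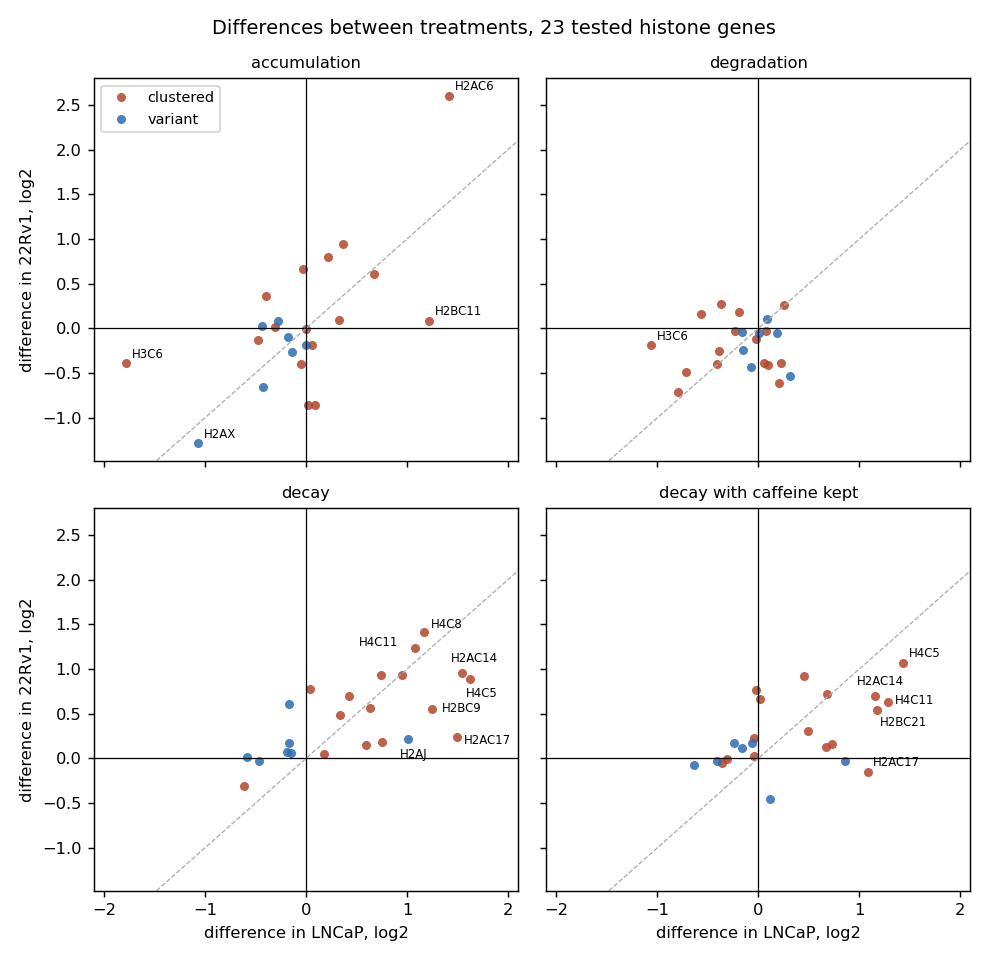
Difference between treatments in LNCaP (x axis) and in 22Rv1 (y axis), in log2 units of the deposited values, for the 23 tested histone genes in 4 comparisons, clustered in red and variant in blue. The dashed line marks equal differences, and genes that reached 1 in either line are named. For decay most clustered genes lie above 0 in both lines (below 0 with scaling to the poly-A controls), for degradation they lie near 0, and for accumulation H2AC6 and H2AX stand at opposite corners.

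**Figure D4:**
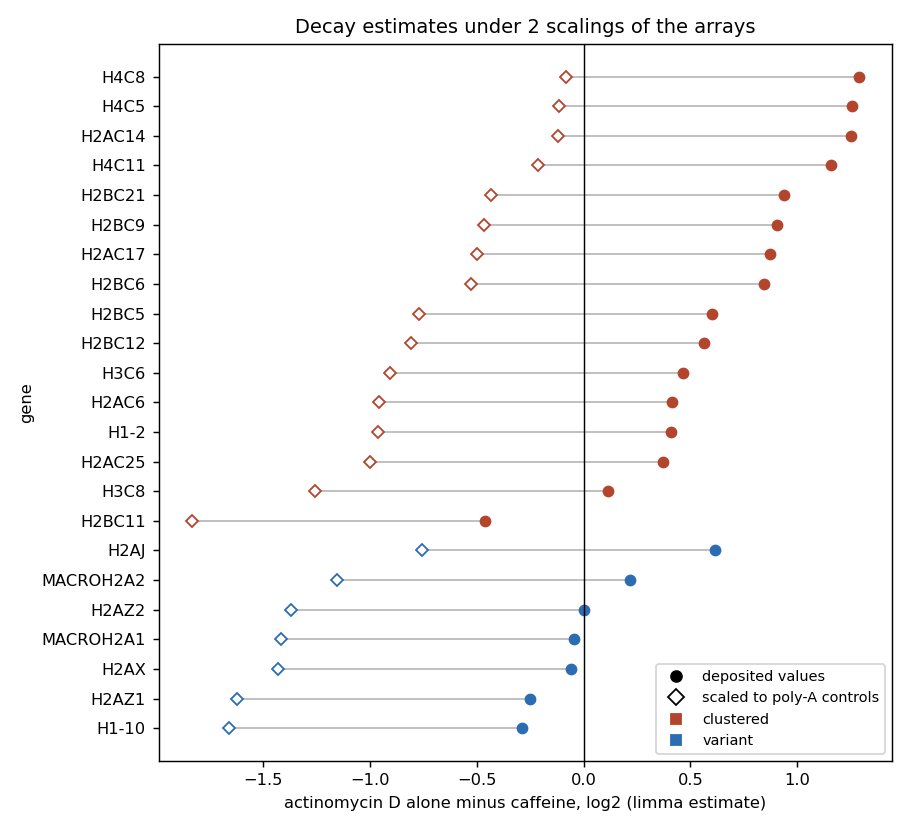
Decay, actinomycin D alone minus caffeine in log2 units (x axis, limma estimate over both lines), for the 23 tested histone genes (y axis). Filled circles are the deposited values and open diamonds the values scaled to the poly-A controls, and scaling moved every gene down by the same amount. Clustered genes in red run from -0.46 to 1.29 before and from -1.83 to -0.08 after scaling, and variants in blue from -0.29 to 0.61 and from -1.66 to -0.76.

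Decay with caffeine kept is actinomycin D with caffeine minus caffeine, and it shares the caffeine arrays with decay and accumulation, so that the values are given side by side only. No histone gene was called, against 0.00% of all tested probe sets, and 6 had an unadjusted p under 0.05, all clustered and above 0 in the deposited values, against 12.2% of all tested probe sets with such a p in either direction and 52.4% with an estimate above 0. H4C5 had an estimate of 1.25 (adjusted p = 0.329), H4C11 of 0.95, H2AC14 of 0.93, H2BC21 of 0.86, H2BC9 of 0.70 and H4C8 of 0.69, and with poly-A scaling all but H4C5 turned below 0. H2BC6, at 0.84 in decay, was at 0.09 (SE 0.19) here. The LNCaP values here rest on the array whose 18S signal stood apart. Without that array the comparison rests on the other cell line alone, so leaving it out cannot decide its part.

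In LNCaP 5 of 20 clustered genes were higher by at least 1 and 1 was lower, against 4.69% and 8.54% of all genes, and no variant of 7 passed. In 22Rv1 1 of 10 clustered genes was higher and none lower, against 1.93% and 7.14%, and again no variant passed. The clustered gene was H4C5, at 2.94 after caffeine, which entered only through its other array, at 4.01. Median differences of clustered genes were 0.44 and 0.42, and those of variants -0.16 and -0.02, whereas with poly-A scaling the median over both lines was -0.54 and -1.07.

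In the list of histone mRNA making and decay 5 of 24 tested genes were lower in decay and none higher on the deposited scale. Over all 21453 tested probe sets 399 were lower and 102 higher. ZNF473, a zinc finger protein of the U7 processing complex, was at 7.68 after caffeine and 3.02 after actinomycin D alone in LNCaP and at 9.05 and 5.22 in 22Rv1 (estimate -4.25, SE 0.31, adjusted p = 0.0257). LSM11, a subunit of the U7 particle that guides cleavage of histone mRNA, had an estimate of -2.02, HINFP, an activator of H4 genes, of -1.68, CCNE1 of -1.55 and CASP8AP2 of -1.48. With caffeine kept none was called, and ZNF473 was at 7.06 in LNCaP and 8.43 in 22Rv1. For degradation none of the 24 was called and 8 had an unadjusted p under 0.05, against 7.98% of all tested probe sets, with ZNF473 at 3.63 (SE 0.31). For accumulation none was called and 11 had an unadjusted p under 0.05, among them ZNF473 (1.87), LSM11 (1.60), HINFP (1.25) and ERI1, an exonuclease that trims the histone stem-loop (1.21), whereas SLBP was at -0.61 and TUT7 differed by -1.09 in LNCaP and -2.90 in 22Rv1. Of all tested probe sets 17.7% had such a p for accumulation.

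Of the 28 chaperones 1 was lower in decay, HJURP, which loads the centromeric H3 variant, at -2.01 (SE 0.21), and none was called in the other treatment comparisons. Of the 23 S phase genes CCNE1 alone was lower in decay and none was called for accumulation, where 6 had an unadjusted p under 0.05, FEN1, CCNE2, CDC6, MCM4, MCM6 and MCM3, all with estimates below 0 (-0.94 to -0.52). Beside these lists, 399 of all 21453 tested probe sets were lower in decay and 17.7% had such a p for accumulation.

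The 31 members that were not tested had few signals. H2BC17 was at 4.11, 5.30, 5.05 and 5.05 in LNCaP and between 2.29 and 2.81 in 22Rv1. H2AC15 was at 4.81, 5.56, 3.88 and 5.30 in LNCaP and between 2.63 and 3.02 in 22Rv1. H2BC4, the neighbour of H2AC6, was at 4.39, 3.62, 4.05 and 6.57 in LNCaP and between 2.33 and 2.38 in 22Rv1. In these 3 genes the LNCaP arrays were above the 22Rv1 arrays, although not all of them reached 4. These 3 reached 4 in LNCaP only, so that LNCaP had to be higher on those arrays. Of all tested probe sets 20.5% had every LNCaP array above every 22Rv1 array. H2AC4 reached 4.14 on the caffeine array of LNCaP alone, and the 1 probe set that carries H3-3A alone reached 4.04 in untreated LNCaP and 2.44 to 2.65 elsewhere.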

How the data were processed

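RNA of 2 prostate cancer cell lines under 4 treatments was measured on 8 arrays, 1 per line and treatment, and groups follow the sample titles. The authors ran gcRMA (background correction, quantile normalization and summary per probe set) and deposited its log2 values. RMA and GCRMA are named, without a version, in the processing notes of the submitters. The values were used as deposited, and the number of arrays limits the precision. Probe sets took genes from the array annotation, and 41097 of 54675 carry 1 symbol. Members and gene lists were chosen with earlier results of these data known.

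Treatments were compared in limma 3.58.1 (R 4.3.3) with cell line as a block, and the lines with treatment as a block, over probe sets whose mean reached 4, with Benjamini-Hochberg adjustment and a threshold of 0.05. The script was tested on simulated data. Counts within a line used a difference of at least 1 and no test. Alternatives were other filters, variance models, scalings, probe sets, cut-offs and each array left out. Named genes were all tested variants, clustered genes called or with the 4 largest or smallest estimates of a comparison, called genes of each list (at most 4 per comparison) and members next to the limit, and others were named after their values were seen. Tables and figures used Python 3.11.15, pandas 2.3.3 and matplotlib 3.10.9.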

Additional observations from a re-analysis of the deposited data

Results flagged for a closer look

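In 2 genes the lines moved in opposite directions by at least 0.3. This limit was lowered from 0.5, which no gene had met, after the values were seen. With 1 array per group the gap between lines could not be tested. After caffeine H2AC17 differed from untreated cells by -0.395 in LNCaP and 0.357 in 22Rv1, where it was below 4 on both arrays. For degradation H2AX differed by 0.309 in LNCaP, with the array whose 18S signal stood apart, and by -0.536 in 22Rv1.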

How the results depend on the processing

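Under the alternatives 84 counts of histone genes called stayed within 1.5 times the reported count and 5 did not. The reported count was 0 in every treatment comparison, so there a count that stayed is 0 again. For degradation and with caffeine kept no probe set of the array was called with the reported settings, so such counts say little. Scaling to the poly-A controls gave 11 genes lower in decay and 9 lower with caffeine kept, a mean of at least 6 gave 1 in decay and 10 of 14 tested between the lines (all 10 among the 18), and averaging probe sets gave 1 in decay. Over all 21453 tested probe sets poly-A scaling gave 17489 lower in decay and 10899 lower with caffeine kept. The count between the lines was 15 to 16 without single arrays, and leaving out the block, which is treatment in that comparison, gave 18. Leaving out either array of a treatment gave the same line estimates, so these fits come in identical pairs. No paired analysis by replicate was possible because each group has 1 array. With poly-A scaling decay was -0.12 for H2AC14, -0.50 for H2AC17, -0.81 for H2BC12, -0.43 for H2BC21, -0.77 for H2BC5, -0.53 for H2BC6, -0.47 for H2BC9, -0.21 for H4C11, -0.12 for H4C5 and -0.0817 for H4C8, and with caffeine kept it was -0.0465 for H2AC14, -0.12 for H2BC21, -0.28 for H2BC9, -0.0209 for H4C11 and -0.29 for H4C8, because this scaling shifts every difference down. It also turned the mean over the lines of the clustered median to 0.12 in degradation, -0.64 in decay and -0.54 with caffeine kept, and of the variant median to 0.37 in degradation, and moved the variant median to -0.0325 in accumulation, -1.42 in decay and -1.07 with caffeine kept. Without probe sets whose names mark possible cross-hybridization the clustered median was -0.15 in degradation and 0.62 in decay, with a floor of 4 it was 0.63 in decay and 0.26 with caffeine kept, with a detection limit of 5 it was 0.56 with caffeine kept, and with averaged probe sets the variant median was -0.0886 in degradation. With a cut-off of 0.5 the genes past it in LNCaP and 22Rv1 were 10 and 8 for accumulation, 6 and 3 for degradation, 16 and 9 for decay and 12 and 5 with caffeine kept, and with 1.3 they were 3 and 1 for accumulation, 4 and 1 for decay and 2 and 0 with caffeine kept. In 22Rv1 a detection limit of 5 and a floor of 4 each gave 1 for decay and 0 with caffeine kept, and averaged probe sets gave 1 for accumulation and 1 for degradation. Single genes were followed only in comparisons where their reported unadjusted p was under 0.05. Of these values 645 kept their side of the threshold, 30 lost a call, 2 gained one and 15 turned. Genes outside this set also gained calls, among them MACROH2A1 and H2AX between the lines with poly-A scaling. The cause was not tested, and signals below 4 limit what the 31 genes not tested can show.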

Other observations

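Probe sets that carry several symbols were outside the histone genes described above, and 29 of them included a histone gene, 20 with clustered genes, 1 with H2AB genes and 8 with H3-3A and H3-3B, the genes of the replication-independent H3.3. Of the 20 clustered probe sets 11 were tested, and 10 of these were higher in LNCaP, against 27.4% of all tested probe sets, with line estimates over the 11 from 0.67 to 4.88. For 4 of the 11 the mean in 22Rv1 was below 4, so that they were tested only through LNCaP and had to be higher there. The probe set shared by 10 H3 genes averaged 8.94 on the LNCaP arrays and 4.06 on those of 22Rv1, and one shared by H2AC18 and H2AC19 averaged 13.17 and 9.44. One probe set shared by 14 H4 genes was the only one of the 11 called in decay, at 1.55 (adjusted p = 0.0320) on the deposited scale, and the median over the 11 was 0.96. Of all tested probe sets 2.34% were called in decay, in either direction. All 8 H3.3 probe sets were tested, and between the lines none was higher and 2 were lower in LNCaP, one by 3.16 (estimate -3.16, adjusted p = 0.000264, with means of 6.53 and 9.70) and one by 0.44 (estimate -0.44, adjusted p = 0.0310). Of all tested probe sets 26.3% were lower in LNCaP, a share close to that of the H3.3 probe sets. None of the 8 H3.3 probe sets was called in decay, where their median was 0.13. These probe sets cannot be assigned to 1 gene, and several read the same RNA.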
